A study of Mus musculus with 7 samples.

Results

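The 40 genes described here belong to the interferon response and to antigen presentation on class I molecules. They were taken by symbol from a list, and all 40 were among the 32531 gene symbols of the count tables. The list holds 3 sensors of viral RNA, 4 transcription factors, 19 effectors with their regulators, 10 antigen presentation genes and 4 interferon receptor subunits. The mice were adults of the line Dcdc2a-EGFP/Rpl10a (ES2575), whose name gives a Dcdc2a-driven ribosomal protein Rpl10a fused to EGFP, and the tissue was that bordering the ventricles. The labels name no other strain, allele, age or treatment, and all libraries come from this line. RNA bound to tagged ribosomes was captured by its EGFP tag (translating ribosome affinity purification) and gave 3 libraries, IP 1, IP 3 and IP 4. Total RNA gave 4 libraries, Input 1 to Input 4. Counts assigned to genes ran from 37203427 to 52175180 per library, and 3 counts corresponded to between 0.0575 and 0.0806 CPM (below) at these totals, for counting error only.

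Interferons are cytokines, and cells release those of type I on sensing foreign nucleic acid. Type I interferons bind the receptor of Ifnar1 and Ifnar2, and interferon gamma binds that of Ifngr1 and Ifngr2. Both receptors act through Jak kinases and Stat proteins, which switch on genes that block viral growth and raise the display of peptides on class I molecules. In the healthy brain, class I genes and many interferon-stimulated genes are kept low. Ependymal cells, which line the ventricles and carry motile cilia, are the cells the study set out to profile.

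The 8 ependymal marker genes were chosen with earlier results of these data known, so they give no independent check of the label. All 8 were higher in IP. Their summed level was 192 CPM (counts scaled to a common library size with TMM factors) in IP 1, 2659 in IP 3 and 2279 in IP 4, against 24.3 to 41.1 in the Inputs. IP 1 thus stood far below the other IP libraries, and results are also given without it. Of 6 mural markers (pericytes and vascular smooth muscle) 2 were higher, with sums of 41.1, 587 and 255 CPM in IP 1, IP 3 and IP 4 against 23.6 to 44.0 in Input. Of 6 fibroblast markers 5 were higher, with sums of 86.3, 714 and 442 CPM in the same order against 53.0 to 108 in Input. In bulk RNA, fewer cells of a type and less RNA per cell cannot be told apart. Reads that fell in more than 1 gene made up 1.51% to 2.01% of all reads in the tables, assigned or not, in IP and 9.33% to 12.9% in Input. Those that aligned to more than 1 place made up 19.8%, 29.6% and 39.3% in IP 1, IP 3 and IP 4 and 20.9% to 21.2% in Input. Those in no gene made up 18.4%, 8.85% and 8.15% in the same order and 15.2% to 18.2% in Input. By these 2 measures IP 1 was nearer to the Inputs than IP 3 and IP 4 were. By the annotation, Ifitm2, Irf9, Rtp4, Parp14, Tapbp and Ifnar2 overlap another gene model on the same strand. Ifi35, Dhx58, Usp18, Irf1, Irf7, Psmb8, Psmb9, Tap1 and Tap2 overlap one on the other strand, and the strand setting of the counting is not known, so the counts of all these genes are uncertain.

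Of the 40 genes, 38 had enough counts to be tested, and 5 of them were higher in IP: Oasl2, Ifitm1, Ifitm2, Ifitm3 and Ifit1. All 5 are effectors (edgeR's quasi-likelihood test, Benjamini-Hochberg adjustment over all genes, threshold 0.05). Of all 17375 tested genes 3.64% were higher by this test. None of the 38 was lower, where 2.16% of all genes were (1 at an unadjusted p under 0.05, 0 by DESeq2 and 0 by limma voom). The median log2 fold of the 38 was 1.19, beside 0.06 for all tested genes, and 33 of them had a positive fold. In 13 of the 38 every IP library was above every Input, beside 1659 of all 17375 tested genes (9.55%). In 1 of the 38 every IP library was below, beside 1803 of all tested genes (10.4%).

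The number of calls moved strongly with single libraries and with the test. Without IP 1, 14 of 39 tested members were higher, where 12.5% of all genes were, and 0 were lower, where 9.55% were. The 14 were the 5 genes above and Ifit3, Ifi27, Ifih1, Isg15, Bst2, Rtp4, Trim25, Tapbp and H2-K1. In 22 of the 38 members, IP 3 and IP 4 were both above every Input, beside 3860 of all 17375 tested genes (22.2%). Without IP 3, Oasl2 and Ifitm3 were called (1.91% of all genes higher and 1.98% lower). Without IP 4 edgeR called 0 members (14 higher at an unadjusted p under 0.05), and 0.0556% of all genes were higher and 0.106% lower. Without Input 1, 2, 3 or 4 it also called 0 (12 to 14 higher at an unadjusted p under 0.05). Of all genes 0.123%, 0.0704%, 0.0235% and 0.0236% were then higher, and 0.176%, 0.141%, 0.0941% and 0.112% lower.

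With the replicate number as a block, to which Input 2 adds nothing because it has no IP partner, edgeR called Oasl2 alone among the members (0.553% of all genes higher and 0.190% lower). DESeq2 called 11 members higher (8.14% of all genes higher and 5.61% lower). limma voom called 0 (13 members higher at an unadjusted p under 0.05, 0.357% of all genes higher and 0.984% lower). Total counts in place of TMM gave 5 members (3.75% of all genes higher and 1.80% lower), and no filter on low counts gave 5 (2.33% higher and 1.57% lower).

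**Figure D1:**
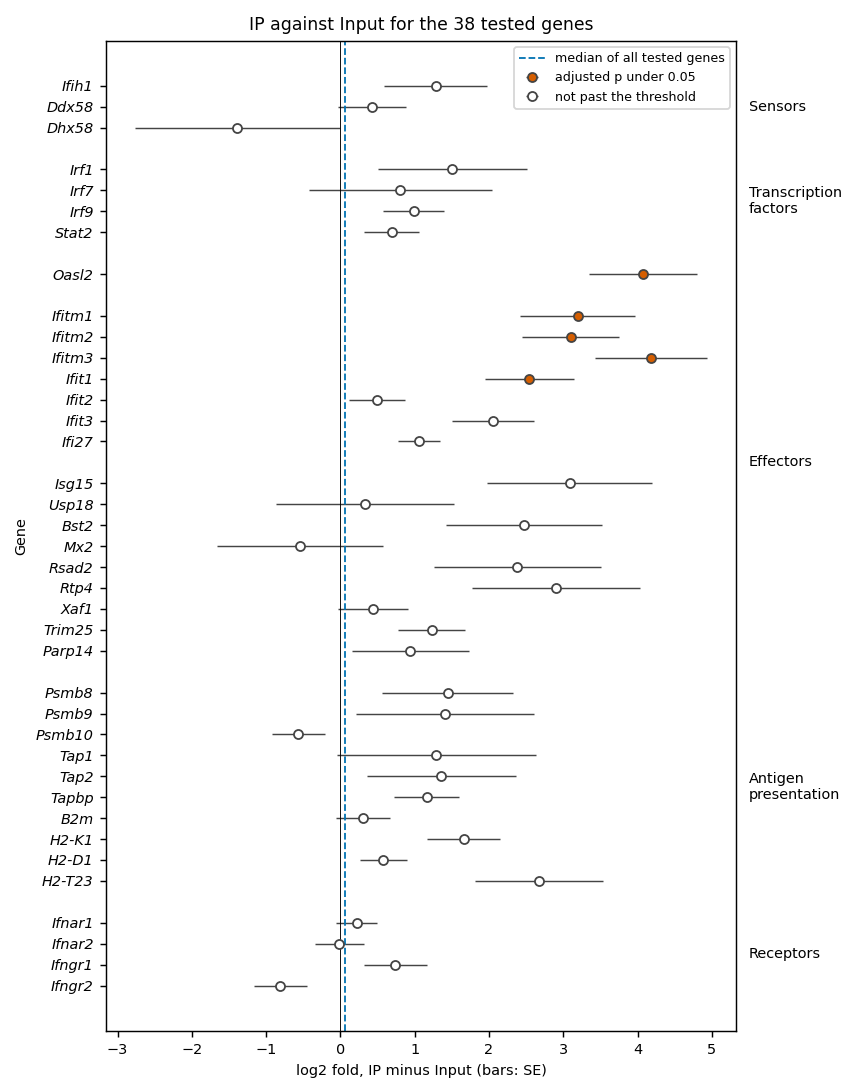
The log2 fold of IP over Input (x axis, bars: SE) for the 38 tested genes, ordered by role. Filled points passed the test at an adjusted p under 0.05 and are all effectors, and the dashed line is the median of all tested genes at 0.06.

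Interferon-stimulated genes often carry the interferon-stimulated response element (ISRE) near their start, where a complex holding Stat2 and Irf9 binds. The ISRE core was searched as GAAA, any 2 bases and GAAA again, with TTTC, any 2 bases and TTTC for the other strand, in RefSeq promoter windows (build GRCm38.p6, 250 bases before to 50 after each start). Of the members 33 had a window. The core stood in 13 of their 37 windows (35.1%), beside 3.44% of the 32851 windows of all genes and 2.89% of those of tested genes. By role it stood in windows of 8 of 14 effectors, 2 of 2 sensors, 2 of 9 presentation genes, 1 of 4 transcription factors and 0 of 4 receptors. The core of the interferon gamma activated site, TTCNNNGAA, stood in 9 of the 37 windows (24.3%), beside 8.30% of all windows. By role it stood in windows of 5 of 14 effectors, 2 of 4 receptors (Ifnar1 and Ifnar2), 1 of 9 presentation genes, 1 of 4 transcription factors and 0 of 2 sensors. In 2 member windows, those of Bst2 and Ifitm3, matches of the 2 cores share letters, and a match describes the sequence only.

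Of the 5 called genes Ifit1, Ifitm2 and Ifitm3 had an ISRE core in their window, and Oasl2 and Ifitm1 had none there. The 160 bases before the start are shown for Ifit1 and Ifitm2. Those of Isg15 and B2m, which were not called, stand beside them. For Ifitm3 the cores lie in the first transcribed bases and 29 bases around them are shown. Capitals mark every letter of an ISRE core on either strand, and each line runs 5′ to 3′ on the strand of its gene.
Ifit1 (chr19:34640729-34640888, plus strand): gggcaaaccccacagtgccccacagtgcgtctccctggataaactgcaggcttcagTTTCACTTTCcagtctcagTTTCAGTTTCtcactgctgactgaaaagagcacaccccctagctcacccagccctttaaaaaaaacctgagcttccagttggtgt
Ifitm2 (chr7:140955962-140956121, minus strand): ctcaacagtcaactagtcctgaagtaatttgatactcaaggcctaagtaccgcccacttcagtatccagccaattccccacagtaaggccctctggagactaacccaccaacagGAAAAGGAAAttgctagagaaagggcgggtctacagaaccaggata
Ifitm3 (chr7:141010715-141010743, minus strand): gGAAAAGGAAActtctgaGAAACCGAAAc
Isg15 (chr4:156200819-156200978, minus strand): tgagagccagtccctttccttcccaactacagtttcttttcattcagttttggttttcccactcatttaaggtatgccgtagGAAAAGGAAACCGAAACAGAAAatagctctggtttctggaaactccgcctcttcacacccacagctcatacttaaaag
B2m (chr2:122147527-122147686, plus strand): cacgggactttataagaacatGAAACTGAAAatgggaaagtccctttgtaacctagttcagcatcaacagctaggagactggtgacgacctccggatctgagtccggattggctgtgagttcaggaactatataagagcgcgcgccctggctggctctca
Ifit1 had 2 cores, beginning 104 and 85 bases before the start. Ifitm2 had 1, beginning 46 bases before it. In Isg15 the core was found 3 times in overlapping letters, beginning 78, 72 and 66 bases before the start. In B2m it began 139 bases before the start.

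The effectors held the largest log2 folds among the members. Oasl2, an oligoadenylate synthetase-like antiviral protein (ENSMUSG00000029561.17, chromosome 5, 114896936 to 114912234), had 9.61, 56.2 and 28.3 CPM in IP 1, IP 3 and IP 4. The Inputs 1 to 4 held 0.442, 2.82, 2.89 and 1.30 CPM. Every IP was above every Input, and the gap was about the same on each sequencing lane: log2 ratios to the Input of the same number were 4.31, 4.26 and 4.39. That evenness rests on Input 1, the lowest Input, with 18 counts. Against the mean of the Inputs, Oasl2 had log2 ratios of 2.66, 5.20 and 4.21 in IP 1, IP 3 and IP 4. Its log2 fold was 4.07 ± 0.73 (SE, adjusted p = 0.0185 by edgeR), and 4.38 with the block (adjusted p = 0.00952). Without IP 4 or any 1 Input its edgeR adjusted p lay between 0.0556 and 0.0683.

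The Ifitm genes, which encode small membrane proteins that hinder viral entry, lie together on chromosome 7. Ifitm3 (ENSMUSG00000025492.6, 141009586 to 141010770) had 20.3, 379 and 211 CPM in IP 1, IP 3 and IP 4. The Inputs 1 to 4 held 14.0, 11.5, 11.6 and 7.79 CPM. All IP libraries were above the Inputs, but IP 1 only narrowly. Ratios to the same-numbered Input were 0.53, 5.02 and 4.75 on the log2 scale, so the rise in IP 3 and IP 4 made up the log2 fold of 4.18 ± 0.76 (SE, adjusted p = 0.0208 by edgeR, and 0.166 with the block). Ifitm2 (ENSMUSG00000060591.9, 140954837 to 140955987) had 6.89, 61.1 and 42.5 CPM in IP and 4.54, 4.51, 1.91 and 6.21 CPM in Input. Its log2 fold was 3.10 ± 0.65 (SE, adjusted p = 0.0286 by edgeR, and 0.202 with the block). IP 1 stood just above Input 4, the highest Input. Ifitm1 (ENSMUSG00000025491.14, 140967221 to 140969825) had 4.81, 21.1 and 5.85 CPM in IP and 2.45, 0.358, 0.956 and 0.860 CPM in Input. Its log2 fold was 3.19 ± 0.78 (SE, adjusted p = 0.0416 by edgeR, and 0.200 with the block). Unlike in Ifitm2 and Ifitm3, the value of IP 4 was close to that of IP 1. Reads that also align to another place were not counted, so related genes such as these can be undercounted, and Ifitm2 overlaps the model Gm45717 on the same strand.

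Ifit1, which binds foreign RNA and blocks its translation (ENSMUSG00000034459.8, chromosome 19, 34640871 to 34650009), had 5.57, 32.4 and 10.03 CPM in IP and 3.07, 2.995, 1.61 and 3.32 CPM in Input. IP 3 was far above the other libraries. The log2 fold was 2.54 ± 0.60 (SE, adjusted p = 0.0385 by edgeR, and 0.240 with the block), and 1.496 without IP 3 (adjusted p = 0.180). Its neighbour Ifit3 (34583531 to 34588731), which works with Ifit1, had 8.37, 29.95 and 13.9 CPM in IP and 3.09, 7.73, 3.41 and 2.55 CPM in Input. The groups did not overlap, and IP 1 lay just above Input 2. Ifit3 missed the threshold at a log2 difference of 2.05 ± 0.55 (SE, adjusted p = 0.0559 by edgeR). The third member of the cluster, Ifit2, had 9.67 to 19.3 CPM in IP and 6.83 to 12.8 CPM in Input, overlapping ranges (log2 fold 0.49 ± 0.37 SE, adjusted p = 0.488 by edgeR).

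**Figure D2:**
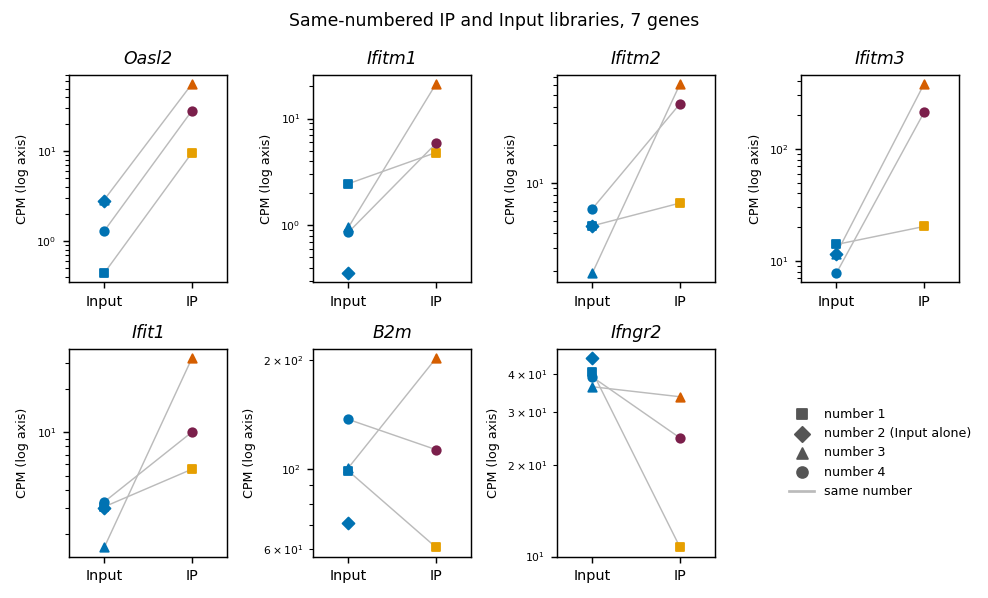
CPM (log axis) of the 5 genes called higher and of B2m and Ifngr2 in each Input and IP library, with lines joining libraries of the same number. In Oasl2 the 3 lines rise in parallel, in Ifitm2 and Ifitm3 the line of number 1 is nearly flat, and in Ifngr2 all 3 lines fall.

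A further 12 effectors were tested and not called. Ifi27, a mitochondrial protein gene induced by interferon, had 42.0, 57.1 and 44.2 CPM in IP and 20.9, 32.1, 23.3 and 15.5 CPM in Input. Its groups did not overlap, and IP 1 and IP 4 were close to each other (log2 fold 1.06 ± 0.29 SE, adjusted p = 0.0585 by edgeR). Trim25, the ubiquitin ligase that aids RNA sensing, had 12.2, 22.2 and 17.1 CPM in IP and 6.70, 9.39, 3.06 and 10.2 CPM in Input. Its groups also stood apart, with a log2 difference of 1.23 ± 0.45 (SE, adjusted p = 0.138 by edgeR). Isg15, the ubiquitin-like modifier, and Rsad2, the antiviral enzyme viperin, had IP above every Input at lower levels. Isg15 ranged from 0.721 to 5.66 CPM in IP and from 0.0491 to 0.491 CPM in Input (adjusted p = 0.132 by edgeR). Rsad2 ranged from 4.68 to 6.81 CPM in IP and from 0.109 to 3.95 CPM in Input (adjusted p = 0.241 by edgeR).

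Ifit2 and 6 further tested effectors had overlapping groups. Rtp4 had 0.420 CPM in IP 1, below every Input, and 41.1 and 15.8 CPM in IP 3 and IP 4, against 0.710 to 5.39 CPM in Input. Its log2 fold of 2.90 ± 1.13 (SE, adjusted p = 0.169 by edgeR) rested on IP 3 and IP 4, and it was called without IP 1 (adjusted p = 0.00142), while without IP 3 the value was 1.67 (adjusted p = 0.439). Bst2 (tetherin, which holds budding virus at the cell surface) had a log2 difference of 2.47 ± 1.05 (SE, adjusted p = 0.195 by edgeR, and 0.0492 without IP 1). Parp14, Xaf1 and Usp18, the protease that removes Isg15, had log2 folds of 0.94, 0.44 and 0.33. Mx2, a dynamin-like antiviral GTPase, was the only effector with a negative value, at -0.55 (positive, at 0.05, without Input 3). Oas1a and Ifi35 were not tested: Oas1a held 0 to 13 counts per library, and Ifi35 0, 40 and 13 counts in IP 1, IP 3 and IP 4 and 0 to 2 in Input.

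**Figure D3:**
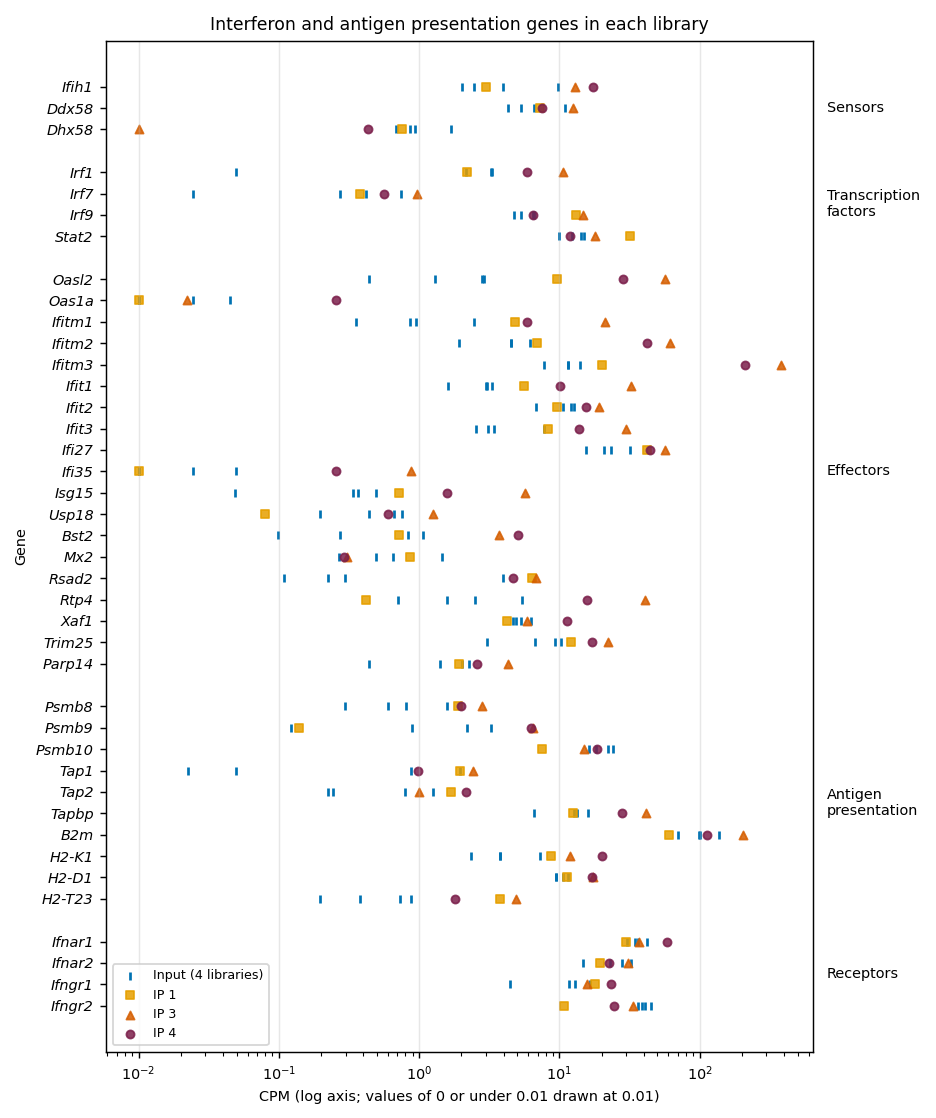
CPM of all 40 genes (log axis) in the 3 IP libraries and the 4 Inputs, grouped by role. In most effectors IP 3 and IP 4 lie right of the Inputs with IP 1 nearer to them. In most presentation genes IP 3 and IP 4 also lie right of the Inputs. Over all libraries the groups overlap in 7 of 17 tested effectors and 7 of 10 presentation genes. They also overlap in 4 of 4 transcription factors, 3 of 3 sensors and 3 of 4 receptors.

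No sensor passed the test (edgeR, 0 of 3 also at an unadjusted p under 0.05, and 0 by DESeq2 and limma voom). Ddx58, which encodes RIG-I (ENSMUSG00000040296.15, chromosome 4, 40203773 to 40239828), had the highest CPM per kb of exon among the sensors as a mean over all 7 libraries, though Ifih1 was higher in IP. It had 7.29, 12.6 and 7.49 CPM in IP and 4.32, 11.0, 6.58 and 5.30 CPM in Input. The groups overlapped, with IP 3 and Input 2 the highest of their kind (log2 fold 0.42 ± 0.46 SE, adjusted p = 0.648 by edgeR). Ifih1 had 2.98 to 17.3 CPM in IP and 2.04 to 9.77 CPM in Input, with IP 1 inside the Input range (log2 fold 1.28 ± 0.69 SE, adjusted p = 0.310 by edgeR). Without IP 1 the value was 1.73 (adjusted p = 0.0401 by edgeR), and without IP 4 it was 0.81 (0.658). Dhx58, the regulator of the other sensors, held 0 to 38 counts in IP and 28 to 62 in Input, and overlaps the antisense gene Dhx58os.

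None of the 4 transcription factors was called by edgeR, DESeq2 or limma voom, and edgeR had 1 higher at an unadjusted p under 0.05, Irf9. Stat2 (ENSMUSG00000040033.16, chromosome 10, 128270559 to 128292849), which had the highest mean CPM per kb of exon among these factors, had 32.1, 18.0 and 11.96 CPM in IP and 9.88, 12.2, 14.9 and 14.2 CPM in Input. IP 1 held its highest value, and IP 4 lay within the Inputs (log2 fold 0.69 ± 0.37 SE, adjusted p = 0.311 by edgeR). Its partner Irf9 had 13.1, 14.9 and 6.48 CPM in IP and 4.73 to 6.61 CPM in Input. IP 4 fell inside the Input range, and the log2 fold was 0.99 ± 0.41 (SE, adjusted p = 0.186 by edgeR). Irf9 overlaps Rnf31 on the same strand. Irf1, the factor induced by interferon gamma, held 0.0491 CPM (2 counts) in Input 4 and 2.17 to 3.33 CPM in the other Inputs, against 2.18 to 10.6 CPM in IP (adjusted p = 0.421 by edgeR). Irf7, the driver of late interferon alpha production, stayed under 1 CPM in every library.

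Antigen presentation genes had a median log2 fold of 1.32, and 9 of 10 had a positive fold, but edgeR called 0 of them (3 higher at an unadjusted p under 0.05, 2 by DESeq2 and 0 by limma voom). B2m, the light chain shared by all class I molecules (ENSMUSG00000060802.8, chromosome 2, 122147686 to 122153083), had 60.7, 202 and 113 CPM in IP 1, IP 3 and IP 4. The Inputs 1 to 4 held 98.7, 70.7, 101 and 137 CPM. The lowest and the highest value were both in IP, and the log2 fold was 0.30 ± 0.37 (SE, adjusted p = 0.695 by edgeR). Its sign turned without IP 3, to -0.23.

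Of the class I heavy chains, H2-K1 (ENSMUSG00000061232.16, chromosome 17, 33996017 to 34000347) had 8.77, 11.9 and 19.99 CPM in IP and 7.26, 3.80, 2.35 and 3.76 CPM in Input. The groups did not overlap, though IP 1 and Input 1 were close (log2 fold 1.66 ± 0.49 SE, adjusted p = 0.0759 by edgeR, and 0.0119 without IP 1). H2-D1 had 11.4, 17.4 and 17.1 CPM in IP and 9.39 to 11.6 CPM in Input, with IP 1 inside the Input range (log2 fold 0.58 ± 0.32 SE, adjusted p = 0.321 by edgeR). The nonclassical gene H2-T23 had 1.81 to 4.89 CPM in IP and 0.196 to 0.874 CPM in Input, with no overlap (log2 fold 2.67 ± 0.86 SE, adjusted p = 0.0983 by edgeR). Class I genes have close relatives, and reads that align to more than 1 of them were not counted.

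The peptide supply genes gave mixed values. Tapbp, the tapasin gene that loads peptide onto class I, had 12.6, 41.5 and 27.9 CPM in IP and 6.62 to 16.1 CPM in Input. Only IP 1 was inside the Input range (log2 fold 1.16 ± 0.43 SE, adjusted p = 0.148 by edgeR, and 0.00641 without IP 1, but 0.72 with an adjusted p of 0.404 without IP 3), and Tapbp overlaps Zbtb22. The peptide transporter genes Tap1 and Tap2 stayed at or under 2.42 CPM in every library. Psmb8 and Psmb9, subunits of the immunoproteasome, had log2 folds of 1.44 and 1.41 and means of 2.23 and 4.29 CPM in IP. Psmb9 ranged from 0.140 to 6.48 CPM within IP and from 0.123 to 3.24 CPM within Input, a spread wider than the difference of the means, and it overlaps Tap1 on the other strand. Psmb10, the remaining immunoproteasome subunit, had 7.57 to 18.4 CPM in IP and 16.3 to 24.1 CPM in Input (log2 fold -0.57 ± 0.36 SE, adjusted p = 0.395 by edgeR).

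Levels were compared between genes after division by the merged length of all annotated exons, which can exceed that of the transcripts present. It was 3381 bases for Psmb8, 3660 for Psmb9 and 899 for Psmb5. Psmb8 and Psmb9 overlap models on the other strand, and reads shared by class I genes were not counted. The comparisons are thus approximate. In Input, B2m had 118 ± 31.7 CPM per kb (SD, n = 4), H2-D1 3.98 ± 0.395 and H2-K1 1.46 ± 0.712. The immunoproteasome subunits stood at 11.9 ± 2.08 CPM per kb for Psmb10, 0.442 ± 0.378 for Psmb9 and 0.242 ± 0.161 for Psmb8. Their constitutive counterparts Psmb7, Psmb6 and Psmb5 stood at 24.3 ± 1.74, 27.8 ± 2.72 and 31.6 ± 6.13 CPM per kb. In IP the order of Psmb10 over Psmb9 and Psmb8 was the same, at 7.998 ± 3.25, 1.17 ± 0.981 and 0.659 ± 0.146 CPM per kb (SD, n = 3). Among the effectors in IP, Ifitm2 had 56.2 ± 42.0 CPM per kb, Ifi27 32.5 ± 5.58 and Oasl2 4.92 ± 3.68. Ifitm3 stood above them in each IP library, and above B2m in IP 3 and IP 4 but not in IP 1, where it had 29.9 CPM per kb and B2m 70.6.

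The receptor subunits had log2 folds between -0.81 and 0.74, and edgeR called 0 of 4 (unadjusted p under 0.05 for Ifngr2, which was lower, and 0 called by DESeq2 or limma voom). Whether the roles differ was not tested. Ifnar1 (ENSMUSG00000022967.13, chromosome 16, 91485238 to 91507441) had 29.9, 36.9 and 58.8 CPM in IP and 36.6, 30.5, 42.3 and 34.5 CPM in Input. IP 4 was the highest and IP 1 the lowest of all (log2 fold 0.22 ± 0.28 SE, adjusted p = 0.708 by edgeR, and -0.11 without IP 4). Ifnar2 (91372783 to 91405589) had 19.4, 30.9 and 22.5 CPM in IP and 28.1, 32.2, 14.7 and 22.9 CPM in Input, fully overlapping ranges (log2 fold -0.01 ± 0.33 SE, adjusted p = 0.985 by edgeR). It overlaps the model Gm21970 on the same strand.

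Of the interferon gamma receptor, Ifngr1 binds the ligand and Ifngr2 completes the signalling complex. Ifngr1 (ENSMUSG00000020009.13, chromosome 10, 19591949 to 19610229) had 18.1, 15.8 and 23.4 CPM in IP and 16.6, 12.99, 4.45 and 11.7 CPM in Input. The ranges met at IP 3 and Input 1 (log2 fold 0.74 ± 0.43 SE, adjusted p = 0.345 by edgeR). Ifngr2 (ENSMUSG00000022965.8, chromosome 16, 91547072 to 91565623) had 10.7, 33.7 and 24.6 CPM in IP and 40.7, 45.1, 36.3 and 39.1 CPM in Input. It was the 1 member with every IP below every Input, with IP 1 the lowest, and it did not pass the test (log2 fold -0.81 ± 0.36 SE, adjusted p = 0.210 by edgeR). For their length the 4 subunits were at like levels in IP, from 6.11 ± 3.07 CPM per kb (Ifngr2) to 7.28 ± 1.78 (Ifnar2), within their spread (SD, n = 3). In Input the order was Ifngr2 with 10.7 ± 0.973 CPM per kb, Ifnar2 with 7.35 ± 2.26, Ifnar1 with 6.06 ± 0.83 and Ifngr1 with 4.01 ± 1.79 (SD, n = 4). Ifngr2 had the highest mean, but its range met that of Ifnar2: Ifnar2 had 9.67 CPM per kb in Input 2 and Ifngr2 9.65 in Input 3. Ifnar2, Ifnar1 and Ifngr1 did not differ beyond their spread.

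Of 94 further interferon pathway genes that are no members, 76 were tested, 2 were higher (2.63%, beside 3.64% of all genes) and none lower (4 lower at an unadjusted p under 0.05, 2 by DESeq2 and 0 by limma voom). Their median log2 fold was 0.45. The 2 were effectors: Iigp1, a GTPase that attacks the vacuoles of parasites, and Parp12, an antiviral relative of Parp14. Iigp1 had 1.42, 6.78 and 1.85 CPM in IP and 0.0546 to 0.201 CPM in Input, with no overlap (log2 fold 4.45 ± 1.02 SE, adjusted p = 0.0350 by edgeR, and 0.211 with the block). The lowest Input value of Iigp1 stood for fewer than 3 counts, so the size of its fold is uncertain. Parp12 had 14.6, 15.6 and 21.5 CPM in IP and 4.81 to 8.16 CPM in Input, with no overlap (log2 fold 1.38 ± 0.35 SE, adjusted p = 0.0469 by edgeR, and 0.181 with the block). Without IP 1, 13 of 78 were higher and 3 lower, beside 12.5% and 9.55% of all genes, and without IP 3, IP 4 or any 1 Input edgeR called 0 (8 to 12 higher at an unadjusted p under 0.05, and 1 to 3 lower).

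By role, edgeR called 0 of 10 signalling genes, 0 of 16 sensing genes, 0 of 10 class I and 0 of 9 class II presentation genes and 0 of 3 constitutive proteasome genes. DESeq2 called 2 sensing genes higher and 1 class II gene lower among these, and limma voom 0. At an unadjusted p under 0.05, edgeR had 1 signalling, 2 sensing and 2 class I genes higher and 2 sensing and 1 class II gene lower. The 2 smallest p values of each role belonged to Jak1 (log2 fold 0.56, adjusted p = 0.186 by edgeR) and Il10rb (1.82, 0.252) in signalling, and to Ikbke (3.35, 0.0793) and Mavs (1.48, 0.0883) in sensing. In class I presentation they were Calr (0.69, 0.0992) and Pdia3 (0.62, 0.207), chaperones of the heavy chain. In class II they were H2-DMa (-1.13, 0.0765) and Ifi30 (1.86, 0.233), and among the constitutive subunits Psmb6 (0.39, 0.349) and Psmb7 (0.19, 0.624). Of 8 interferon ligand genes, 6 had 0 counts in every library, which allows at most 0.0806 CPM in a library. None was tested, and Ifng had 0.441, 2.20 and 0.137 CPM in IP and at most 0.0546 CPM in Input. Ifng overlaps the model Gm49751 on the same strand, and Il10rb the model Gm21970. Jak1, Ikbke, Pdia3, H2-DMa, Ifi30 and Psmb7 overlap another gene model on the other strand. The counts of all these genes are thus uncertain.

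IP 3 held the highest value for most members. Of the 38 tested members 27 had their highest IP value in IP 3, 8 in IP 4 and 3 in IP 1, beside 6179, 4341 and 6855 of the 17375 tested genes. Set against the mean of the Inputs, IP 1 had a median log2 ratio of 0.87 for the effectors, IP 3 of 3.04 and IP 4 of 1.90. For presentation genes it was 0.65, 1.70 and 1.54, and for receptors -0.27, 0.22 and 0.33. The ependymal markers stood at 2.72, 6.58 and 6.45, the fibroblast markers at 1.12, 4.70 and 4.06 and the mural markers at 0.52, 4.20 and 2.56. Of the 6 mural markers 6 were highest in IP 3, of the fibroblast markers 5 and of the ependymal markers 6 of 8. Astrocyte markers, at -0.37, 1.15 and 1.07, were also higher in IP 3 and IP 4 than in IP 1. Their sums were 250, 626 and 581 CPM in IP 1, IP 3 and IP 4 against 277 to 321 in Input, and 1 of 5, Gfap, was called higher. Choroid plexus markers, at -0.68, 0.53 and 0.62, were likewise lower in IP 1. Their sums were 1279, 2927 and 3012 CPM in IP 1, IP 3 and IP 4 against 2259 to 4110 in Input. Of these 5 markers edgeR called 0 (1 higher at an unadjusted p under 0.05, 0 by DESeq2 and limma voom). These lists moved with the effectors, and their part in the result was not tested.

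**Figure D4:**
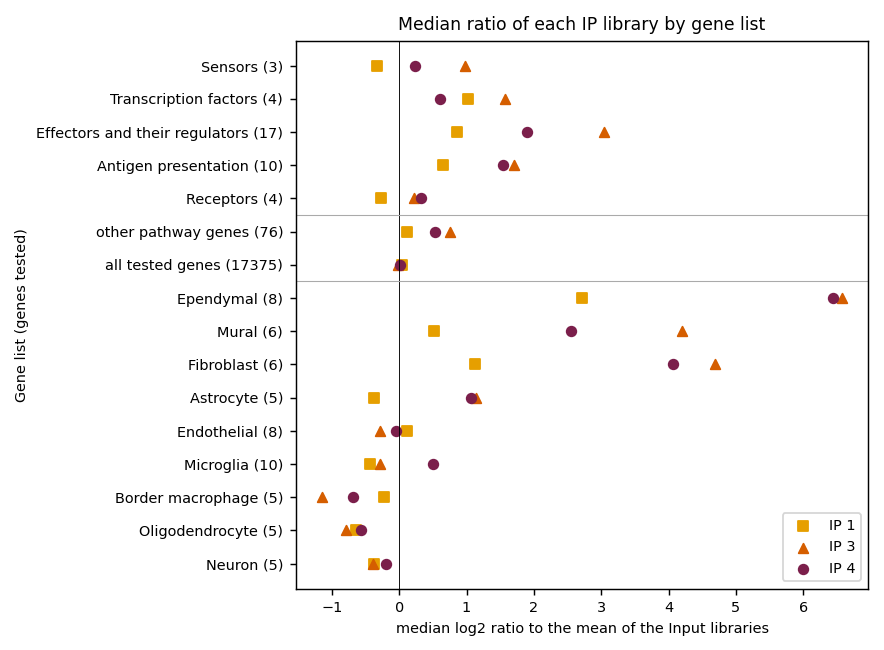
Median log2 ratio of each IP library to the mean of the Inputs (x axis) for the genes of each role, for all tested genes and for cell type marker lists, with the number of tested genes in brackets. Sensors, effectors, presentation genes, receptors, other pathway genes and ependymal, mural, fibroblast and astrocyte markers have IP 3 and IP 4 right of IP 1. In transcription factors IP 4 is left of IP 1. The microglial list has IP 3 and IP 4 right of IP 1 as well. Microglial, endothelial and neuronal lists lie between -0.43 and 0.50, and the border macrophage and oligodendrocyte lists below 0.

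Of 5 oligodendrocyte markers 2 were lower, Mbp and Mobp, and the list stood at -0.64, -0.79 and -0.56 in IP 1, IP 3 and IP 4. At an unadjusted p under 0.05 edgeR had 3 of them lower and 1 higher. That 1 was Mag, which went the other way (log2 fold 0.76, adjusted p = 0.109 by edgeR). Markers of immune and endothelial cells were mostly not called. Of 10 microglial markers edgeR called 0 (1 higher at an unadjusted p under 0.05, 0 by DESeq2 and limma voom), with a median log2 fold of -0.09 and sums of 100.4 to 188 CPM in IP and 95.7 to 150 in Input. Of 5 markers of border macrophages 0 were called (1 lower at an unadjusted p under 0.05, 0 by DESeq2 and limma voom), with sums of 4.19 to 6.31 CPM in IP and 2.86 to 9.32 in Input. Of 8 endothelial markers 1 was higher, Cdh5, with a median of -0.37 and sums of 13.8 to 25.9 CPM in IP and 12.5 to 18.9 in Input. Of the lymphocyte markers only Cd4 had enough counts to be tested. It had 23.9 to 46.3 CPM in IP and 31.9 to 96.7 CPM in Input, overlapping ranges, and was not called (log2 fold -0.78 ± 0.41 SE, adjusted p = 0.291 by edgeR). Cd3e had 0 to 10 counts per library, Ncr1 had 20 counts in Input 4 and 0 elsewhere, and Cd8a, Ms4a1 and Nkg7 had 0 counts in every library.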

How the data were processed

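The authors deposited 1 table of whole-number counts per gene symbol for each of the 7 libraries, without normalization. The aligner STAR 2.0.0e, the counter HTSeq and build mm10 are named per the submitters' processing notes, while annotation, strand setting and kit were not given in the sources used here. Summary lines and an unnamed row, 40.1% to 52.1% of all reads in the tables, stayed out of library sizes and tests.

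Genes were kept with filterByExpr (minimum count 10, minimum total 15), which left 17375, and scaled with TMM. The 3 IP and 4 Input libraries entered 1 fit in edgeR 4.0.16 (R 4.3.3) with group as the only term (glmQLFit with robust moderation, glmQLFTest), Benjamini-Hochberg adjusted over all tested genes. The SE was taken as the size of the log2 fold over the root of F. Ratios of single libraries used log2 CPM with a prior count of 2. DESeq2 1.42.0, limma 3.58.1 (voom), total counts, no filter, a replicate block and leaving out each library were the alternatives. All 40 members are accounted for. Values in every library are given for called members, for those with a mean of at least 5 CPM and no overlap, for the most abundant of each role and for the receptors. Among other pathway genes, those called and the 2 with the smallest p of each role are named, and further genes were named after their values were seen. Members and lists were chosen with earlier results of these data known.

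Positions and exon lengths are from GENCODE M21 (the assembly of mm10), and promoter sequences from RefSeq (GRCm38.p6). The same number marks the same lane (1 on lane 4, 3 on lane 2, 4 on lane 3), so the numbers were taken as pairing the libraries. Their deviations from group means correlated across genes at 0.0318, 0.0426 and 0.0258. For IP and Input libraries of different numbers the values ran from -0.0391 to 0.0119. Nothing in the labels says that libraries came from separate animals, so p-values measure the spread between these libraries, which may be technical.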

Additional observations from a re-analysis of the deposited data

Results flagged for a closer look

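In the 4 Input libraries, a value that stood far from the others was looked for in 38 members with enough counts, and 2 were found, where chance gives about 1 in 20 groups. Rsad2 had 3.95 CPM in Input 1 and 0.109 to 0.295 CPM in the other Inputs. Ifit3 had 7.73 CPM in Input 2 and 2.55 to 3.41 CPM in the other Inputs. The gap to the nearest value was 0.952 of the whole range for Rsad2 and 0.834 for Ifit3, above Dixon's critical value for 4 values. Without Input 1 the log2 fold of Rsad2 was 4.802 and without Input 2 that of Ifit3 was 2.52 (edgeR adjusted p = 0.0556 and 0.069).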

How the results depend on the processing

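The number of members higher in IP (5) was 11 with DESeq2, 0 with limma voom and 1 with the replicate block, and it ranged from 0 to 14 when 1 library was left out. It stayed at 5 with total counts and without the filter, with 5 and 4 of the same genes. No member was called lower by any of these fits. Over all genes, 633 were higher and 376 lower; DESeq2 gave 1396 and 962, limma voom 62 and 171, and the replicate block 96 and 33. Leaving out 1 library gave 4 to 2259 higher and 16 to 1724 lower, both highest without IP 1. Of the other pathway genes 2 were higher and 0 lower; DESeq2 gave 9 and 2, limma voom 0 and 0, the replicate block 0 and 0 and no filter 1 higher. Leaving out 1 library gave 0 to 13 higher and 0 to 3 lower. The cause of these moves was not tested. The replicate block ended the calls of 4 members and changed no other member's call.

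The sign of the log2 fold turned only in members that were not called. Usp18 (0.33) was -0.23 with limma voom, and Ifnar2 (-0.01) was 0.04 with total counts and 0.16 with the replicate block. Leaving out 1 library, Usp18 ranged from -0.58 to 0.85, Mx2 from -1.24 to 0.05, Xaf1 from -0.06 to 0.71, B2m from -0.23 to 0.63, Ifnar1 from -0.11 to 0.41 and Ifnar2 from -0.24 to 0.14. Depth limits Oas1a, Ifi35, Dhx58 and Irf7, which had few counts. Tap1, Isg15, Irf1, Bst2, Rsad2, Usp18 and Psmb9 also had 1 to 5 counts in at least 1 library, which makes their folds less certain.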
